A study of Mus musculus with 9 samples.

Results

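The genes of glycine, methyl group and one-carbon metabolism were followed in the pancreas of mice with induced acute pancreatitis. Of 32 enzymes set by name, 31 were listed among the 17132 genes of the table. Dmgdh, which breaks down dimethylglycine, was not listed. The expression filter left 30 of the 31 among 12828 tested genes. It removed Bhmt, which transfers a methyl group from betaine to homocysteine and had 0 to 2 counts per library. The set was chosen from results of the comparison of Model with Control mice, in which Gnmt and Inmt stood among the genes with the lowest fold changes. Values of that comparison, its counts past the threshold included, are therefore a description of the choice and support nothing, and no p-value of it is given. Comparisons of QYD with Control mice share the Control libraries with it, so their p-values are not independent evidence on the set.

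Pancreas mRNA came from 9 C57BL/6 mice, 3 per group, each weighing 22 to 25 g. QYD mice received 7 hourly intraperitoneal injections of caerulein, given as 50 mg/kg in the design text, the last injection together with lipopolysaccharide (LPS), and Qingyi Decoction at 0 and 8 h. The decoction is a Chinese herbal medicine, abbreviated QTD in another label field, and the labels used here give no dose for it. Model mice received the same caerulein and LPS injections and saline as treatment. Control mice received saline in place of both. All tissue was collected at 24 h from the start, so a single time was measured. Caerulein is usually given to mice in micrograms per kg, so the unit of the stated dose may be a typing error. It is a cholecystokinin analogue that overstimulates the enzyme-secreting acinar cells.

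One-carbon metabolism moves single carbon units between amino acids, folate and S-adenosylmethionine, the methyl donor of most methylation reactions. Serine and glycine load folate with carbon units, methionine adenosyltransferases make S-adenosylmethionine, and methyltransferases spend it. The S-adenosylhomocysteine that remains is split to homocysteine, which is either methylated again or passed on to cysteine. The exocrine pancreas is known for a large flow of amino acids into secreted enzymes, and glycine N-methyltransferase and the enzymes of creatine synthesis are known to be abundant there.

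Promoter windows upstream of the annotated start were taken from RefSeq (GRCm38.p6) for 26 of the 31 listed members, 28 windows in all. Those of Gnmt, Gamt and Inmt are shown because these 3 members had the lowest fold changes in QYD and in Model mice against Control mice. That of Mat2a is shown as a member of the methionine cycle that did not pass the test on the composition-adjusted scale. All 4 genes lie on the minus strand, and each stretch reads 5′ to 3′ towards the gene, leaving out bases inside the annotated gene. The windows are chr17:46729212-46729415 for Gnmt, chr10:80261026-80261262 for Gamt, chr6:55174991-55175240 for Inmt and chr6:72439557-72439806 for Mat2a. Capitals mark TATAAA, the letters of a TATA box.
Gnmt: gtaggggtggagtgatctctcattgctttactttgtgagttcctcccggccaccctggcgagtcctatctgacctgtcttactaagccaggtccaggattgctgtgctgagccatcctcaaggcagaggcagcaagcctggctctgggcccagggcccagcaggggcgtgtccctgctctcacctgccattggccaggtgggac
Gamt: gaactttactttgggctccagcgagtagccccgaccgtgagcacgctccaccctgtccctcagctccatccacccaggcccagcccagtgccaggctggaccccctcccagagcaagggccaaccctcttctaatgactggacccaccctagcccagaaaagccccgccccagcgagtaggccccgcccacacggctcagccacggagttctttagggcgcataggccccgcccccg
Inmt: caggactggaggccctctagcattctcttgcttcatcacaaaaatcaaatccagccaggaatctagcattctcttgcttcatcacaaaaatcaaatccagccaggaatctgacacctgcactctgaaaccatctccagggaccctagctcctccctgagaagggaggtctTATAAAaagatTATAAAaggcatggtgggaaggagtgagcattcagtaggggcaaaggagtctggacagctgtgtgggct
Mat2a: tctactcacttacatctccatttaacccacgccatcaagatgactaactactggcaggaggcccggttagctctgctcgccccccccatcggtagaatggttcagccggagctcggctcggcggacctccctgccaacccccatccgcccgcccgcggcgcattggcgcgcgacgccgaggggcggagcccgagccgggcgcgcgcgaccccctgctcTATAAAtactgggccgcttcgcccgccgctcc
The search covered 250 bases upstream of the start on both strands. TATAAA lay at 80 to 75 and at 69 to 64 bases upstream of the Inmt start and at 32 to 27 bases upstream of the Mat2a start. Phgdh also held it, at 189 to 184 bases upstream, and 12.37% of all 32851 promoters of the table did. CACGTG, the E-box, was found in the Cbs window, at 229 to 224 bases upstream, and in 6.02% of all promoters. TGACNNNGC, the core of the antioxidant response element, was found on the reverse strand in the Phgdh window, at 53 to 45 bases upstream, and in 10.16% of all promoters. TGATGNAA, the core of the element read by ATF4 with C/EBP factors, was found in 0 of the 28 member windows and in 3.45% of all promoters. No 2 of these motifs overlapped in a member window. The median GC content was 59.2% in the member windows and 52.4% in all promoters.

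The scale decides the direction of many comparisons with Control mice in these libraries. The 50 most abundant genes took 65.56% to 71.87% of counts in QYD, 64.58% to 70.19% in Model and 90.57% to 91.12% in Control libraries. The composition adjustment, the trimmed mean of M-values (TMM), multiplied library sizes by 1.36 to 1.79 in QYD, 1.52 to 1.82 in Model and 0.359 to 0.397 in Control libraries. With TMM the median log2 fold change of all tested genes was 0.06 for QYD versus Control, 0.04 for Model versus Control and 0.01 for QYD versus Model. With library size alone these medians were 2.09, 2.19 and -0.11. Levels below are CPM, counts scaled to the TMM-adjusted library size, and each fold change against Control is given on both scales.

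Cell type markers differed between groups in directions that varied by list. A list of 10 acinar markers took 30.5% to 33.5% of counts in QYD, 30.8% to 34.7% in Model and 50.9% to 53.6% in Control libraries. In QYD versus Control mice, 8 of the 10 acinar markers were called lower on the TMM scale, against 20.3% of all tested genes. Their median log2 fold change was -2.64. On library size 5 were called lower and 3 higher, against 0.99% and 93.8% of all tested genes. All 6 neutrophil markers were called higher on both scales, against 20.5% of all tested genes on the TMM scale and 93.8% on library size. Their summed level was 129 to 237 CPM in QYD, 101 to 161 CPM in Model and 7.51 to 32.8 CPM in Control libraries. Islet markers summed to 116 to 209 CPM in QYD, 168 to 359 CPM in Model and 847 to 1267 CPM in Control libraries. Duct markers summed to 452 to 763 CPM in QYD, 572 to 897 CPM in Model and 261 to 338 CPM in Control libraries. Single duct markers went both ways. In QYD versus Control mice 3 of the 8 were called higher and 2 lower on the TMM scale. The shares of all tested genes were 20.5% and 20.3%. The median log2 fold change of the duct markers was 0.345. On library size 7 were called higher and 0 lower, against 93.8% and 0.99% of all tested genes. All 5 red blood cell markers were called lower on the TMM scale and 0 on library size, against 20.3% and 0.99% of all tested genes. They summed to 16.5 to 43.2 CPM in QYD, 24.4 to 41.7 CPM in Model and 74.2 to 213 CPM in Control libraries. Several members are best known from liver. The 10 hepatocyte markers summed to 3.48 to 8.23 CPM in QYD, 7.93 to 9.62 CPM in Model and 17.8 to 24.2 CPM in Control libraries. Most of the Control sum was Ttr, which islet cells also express, while Alb, Serpina1a and Cps1 reached at most 1.40, 0.127 and 0.254 CPM in any library. Ahsg went the other way, with 1.05, 3.82 and 4.43 CPM in QYD, 2.32, 2.501 and 5.97 CPM in Model and 0.14, 0.382 and 0.636 CPM in Control libraries. Fgb had 0.614, 1.81 and 1.45 CPM in QYD, 1.72, 2.89 and 0.862 CPM in Model and 0, 0.127 and 0.763 CPM in Control libraries. Of the 3 hepatocyte markers that passed the expression filter, 1 was called higher and 1 lower in QYD versus Control mice on the TMM scale, and 2 higher and 1 lower on library size. For the other lists, median log2 fold changes in QYD versus Control mice on the TMM scale are given. These were 0.52 for fibroblast and stellate, 0.04 for endothelial, -0.16 for macrophage and -0.62 for adipocyte markers. Mesothelial markers had -0.82, B cell markers 0.48 and the 1 tested T cell marker -0.19. None of these lists had a marker at 0 in every library. The part of these cell types in the member values was not tested. In whole tissue, fewer cells of a type and less RNA per cell cannot be told apart.

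Most members called in QYD versus Control mice were lower on the TMM scale. In QYD versus Control mice 3 of the 30 tested members were called higher, against 20.5% of all tested genes, and 16 were called lower, against 20.3%, at an adjusted p under 0.05 in edgeR's quasi-likelihood test. The median log2 fold change of the 30 was -0.99 on this scale. The Control libraries are those of the comparison that chose the set, so these counts are not independent evidence on it. On library size 18 members were called higher, against 93.8% of all genes, and 9 lower, against 0.99%, with a median of 1.05. The 9 called lower on both scales were Gnmt, Gamt, Sardh, Mat1a, Inmt, Cbs, Cth, Aldh1l2 and Gcat. On library size the QYD and Control libraries of Sardh and Cth overlapped. The 3 called higher on both were Mtr, Nnmt and Gldc. Gldc had 0 counts in all 3 Control libraries. It passed the expression filter only through QYD and Model libraries, so its call supports nothing. The same holds for Nnmt, which had 10, 6 and 4 counts in the Control libraries. Psat1, Psph, Shmt2 and Gcsh were called lower on the TMM scale and higher on library size. So were 1964 of the 12828 tested genes, so calls in opposite directions are nothing particular to the members.

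Model versus Control mice, the comparison that chose the set, had 2 members past the same threshold upwards and 19 downwards on the TMM scale, beside 21.3% and 21.3% of all tested genes, and 18 and 6 on library size, beside 94% and 0.943%. The members were picked for these values, so the counts test nothing. The members' median log2 fold change was -1.11 on the TMM scale and 1.04 on library size.

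**Figure D1:**
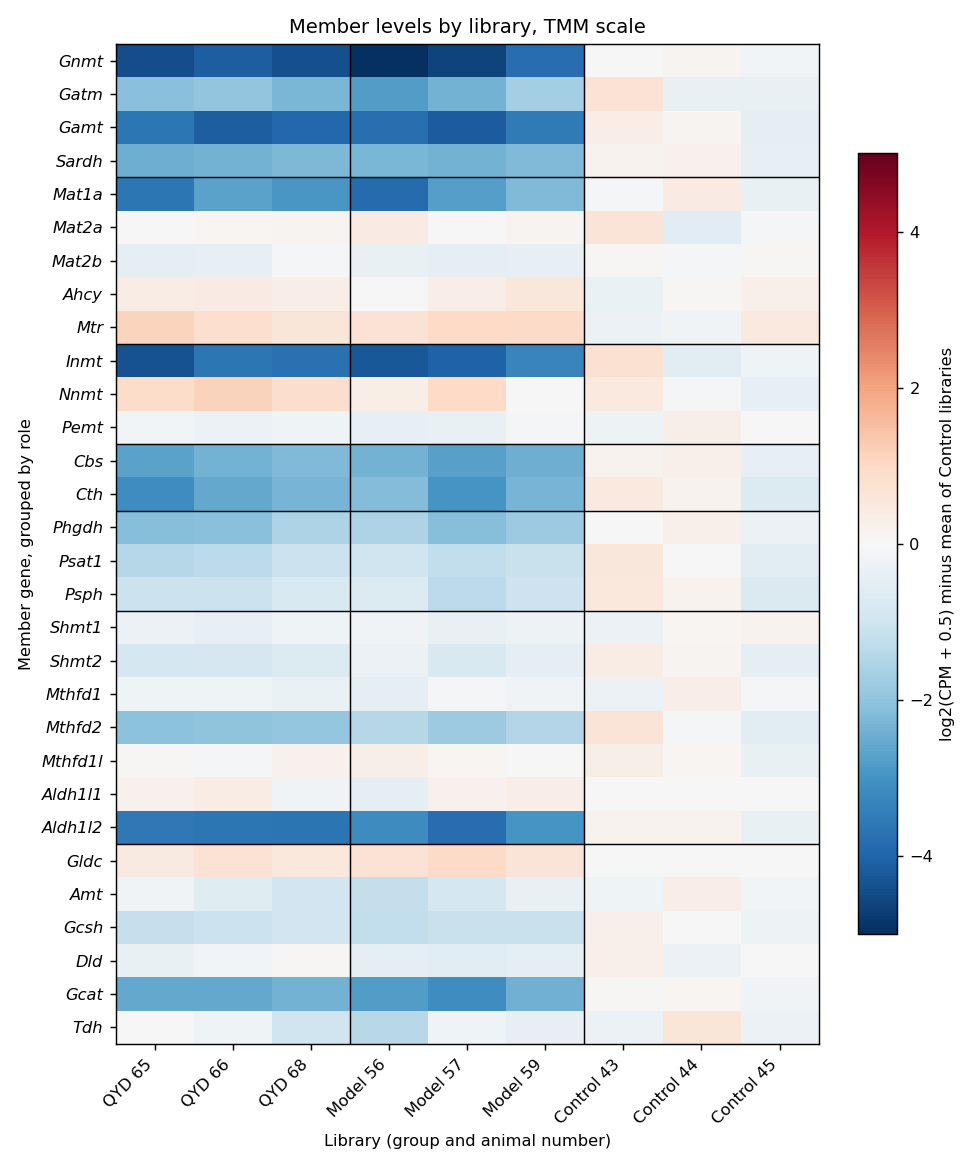
Levels of the 30 tested members in each of the 9 libraries, as log2(CPM + 0.5) on the TMM scale minus the mean of the 3 Control libraries. Rows are genes grouped by role, columns are libraries with the animal number, blue is below and red above the Control mean. Gnmt, Gamt, Inmt and Aldh1l2 are dark blue in all 6 QYD and Model columns, and the QYD and Model columns look alike.

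Transcripts of all 4 listed members of sarcosine and creatine metabolism were called lower in QYD versus Control mice on the TMM scale, against 20.3% of all tested genes. On library size 3 of them were called lower, against 0.99% of all tested genes. Gnmt (chromosome 17, 46725664 to 46729211) transfers a methyl group to glycine and so makes sarcosine. Its level was 4.12, 5.16 and 4.28 CPM in QYD, 2.55, 3.54 and 6.52 CPM in Model and 98.4, 110.3 and 89.6 CPM in Control libraries. The groups were far apart, with the lowest Control library above every QYD and Model library. The log2 fold change was -4.46 ± 0.29 (SE) in QYD versus Control mice (edgeR, adjusted p = 3.34e-06) and -2.43 on library size. Gnmt stood out in the comparison that chose the set, which used the same Control libraries. Its p-value is therefore not independent evidence. Model versus Control mice gave -4.57 ± 0.29 and -2.46.

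Gamt, which methylates guanidinoacetate to creatine (chromosome 10, 80258151 to 80261025), had 5.96, 4.02 and 4.69 CPM in QYD, 5.35, 3.90 and 6.28 CPM in Model and 98.1, 85.6 and 57.6 CPM in Control libraries. Its log2 fold change was -4.03 ± 0.25 in QYD versus Control mice (edgeR, adjusted p = 2.63e-06) and -1.97 on library size, and -3.96 ± 0.25 and -1.81 in Model versus Control mice. Gatm, which makes guanidinoacetate from arginine and glycine, had 39.9, 42.9 and 34.6 CPM in QYD, 24.0, 32.5 and 52.1 CPM in Model and 283, 131 and 133 CPM in Control libraries. Control 43 was the highest of the Control libraries, and the groups did not overlap on this scale. The Gatm log2 fold change was -2.22 ± 0.34 in QYD versus Control mice (edgeR, adjusted p = 0.000501), but -0.15 on library size, where it was not called (adjusted p = 0.60). Model versus Control mice gave -2.33 ± 0.34 and -0.19. Sardh is the mitochondrial enzyme that returns sarcosine to glycine. Its level was close within QYD (5.64, 5.86 and 6.41 CPM) and within Model libraries (6.30, 5.95 and 6.66 CPM). The Control libraries of Sardh spread more, at 37.5, 38.0 and 24.5 CPM. The Sardh log2 fold change was -2.48 ± 0.17 in QYD versus Control mice and -0.45 on library size, and -2.40 ± 0.17 and -0.25 in Model versus Control mice.

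The methionine cycle split between enzymes that do the same reaction. Mat1a, the methionine adenosyltransferase of differentiated liver (chromosome 14, 41105012 to 41124428), had 7.86, 15.7 and 13.1 CPM in QYD, 6.70, 14.6 and 21.5 CPM in Model and 97.6, 137 and 78.9 CPM in Control libraries. All 6 QYD and Model libraries lay below the 3 Control libraries. The Mat1a log2 fold change was -3.10 ± 0.40 in QYD versus Control mice (edgeR, adjusted p = 0.000201) and -1.10 on library size, and -2.88 ± 0.39 and -0.77 in Model versus Control mice. Mat2a, the form used by most other tissues, averaged 35.5 ± 1.54 CPM in QYD, 38.6 ± 5.96 CPM in Model and 35.6 ± 15.4 CPM in Control mice (SD, n = 3 each). Its log2 fold change in QYD versus Control mice was 0.00 ± 0.25 on the TMM scale and 2.04 on library size. Mat2b, the regulatory subunit of Mat2a, averaged 22.7 ± 3.79, 20.8 ± 0.475 and 27.9 ± 1.77 CPM in QYD, Model and Control mice, with a log2 fold change of -0.30 ± 0.13 in QYD versus Control mice (edgeR, adjusted p = 0.0927) and 1.72 on library size.

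Ahcy, which splits S-adenosylhomocysteine, was the most abundant member in every group. It had 966, 994 and 928 CPM in QYD, 735, 951 and 1093 CPM in Model and 600, 783 and 884 CPM in Control libraries. Its QYD libraries lay above all Control libraries, but the log2 fold change of 0.35 ± 0.18 was not called on the TMM scale (edgeR, adjusted p = 0.147), while on library size it was 2.38 and called higher. Mtr, methionine synthase, which methylates homocysteine with folate-bound carbon, had 6.05, 4.99 and 4.17 CPM in QYD, 4.55, 5.51 and 5.48 CPM in Model and 1.96, 2.17 and 3.81 CPM in Control libraries. It was one of the few members called higher in QYD than in Control mice, by 0.93 ± 0.26 (edgeR, adjusted p = 0.0137) and by 2.98 on library size. The adjusted p of Mtr was 0.0518 without Control 43 and 0.057 without Control 44.

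Of the other methyltransferases, Inmt was called lower in QYD versus Control mice on both scales. Nnmt was called higher on both, but it passed the expression filter only through QYD and Model libraries. The Nnmt call therefore supports nothing. Inmt, which methylates tryptamine and other small amines (chromosome 6, 55170627 to 55174990), had 0.146, 0.570 and 0.484 CPM in QYD, 0.200, 0.298 and 0.828 CPM in Model and 21.9, 8.40 and 10.7 CPM in Control libraries. It had the lowest log2 fold change among the members, -5.11 ± 0.55 in QYD versus Control mice (edgeR, adjusted p = 6.99e-05) and -3.08 on library size. Inmt also stood out in the comparison that chose the set, with the same Control libraries, so its p-value is not independent evidence. Model versus Control mice gave -4.98 ± 0.54 and -2.83, and -5.74 on the TMM scale without Model 59. Nnmt, which methylates nicotinamide, had 2.02, 2.51 and 1.94 CPM in QYD, 1.17, 2.203 and 0.862 CPM in Model and 1.40, 0.764 and 0.509 CPM in Control libraries. Its QYD libraries lay above all Control libraries, and its log2 fold change in QYD versus Control mice was 1.29 ± 0.45 (edgeR, adjusted p = 0.0406) and 3.31 on library size. The call was lost on leaving out any QYD library, Control 44 or Control 45, with adjusted p-values of 0.0671, 0.10 and 0.0581 without QYD 65, 66 and 68, and 0.119 and 0.137 without Control 44 and 45. Pemt, which methylates phosphatidylethanolamine to phosphatidylcholine, averaged 1.04 ± 0.0696, 0.955 ± 0.189 and 1.30 ± 0.34 CPM in QYD, Model and Control mice and was not called on the TMM scale.

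Both enzymes of transsulfuration, the route from homocysteine to cysteine, were called lower in QYD versus Control mice on both scales. The share of all tested genes called lower was 20.3% on the TMM scale and 0.99% on library size. Cbs, which joins homocysteine and serine, had 18.6, 22.8 and 25.6 CPM in QYD, 23.1, 18.0 and 21.8 CPM in Model and 136, 142 and 89.3 CPM in Control libraries. The log2 fold change of Cbs was -2.46 ± 0.20 in QYD versus Control mice (edgeR, adjusted p = 1.12e-05) and -0.44 on library size. Cth, which releases cysteine, had 3.48, 5.43 and 6.44 CPM in QYD, 7.24, 3.93 and 6.49 CPM in Model and 48.6, 38.6 and 21.1 CPM in Control libraries, a log2 fold change of -2.82 ± 0.33 in QYD versus Control mice (edgeR, adjusted p = 0.000125) and -0.81 on library size. Neither gene's QYD and Model libraries reached the lowest Control library on the TMM scale. On library size the calls were closer to the threshold (edgeR, adjusted p = 0.0354 for Cbs and 0.0145 for Cth). There the QYD and Control libraries of Cth overlapped. In Model versus Control mice the values were -2.55 ± 0.20 and -0.39 for Cbs and -2.61 ± 0.33 and -0.45 for Cth. Neither gene was past the threshold on library size in that comparison.

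All 3 enzymes of serine synthesis from glycolytic intermediates were called lower in QYD versus Control mice on the TMM scale, against 20.3% of all tested genes. On library size 2 were called higher, against 93.8% of all tested genes, and 0 lower, against 0.99%. Phgdh, the first enzyme of the route, had 37.3, 37.6 and 55.4 CPM in QYD, 55.0, 37.3 and 45.7 CPM in Model and 167, 193 and 134 CPM in Control libraries. The log2 fold change of Phgdh was -1.92 ± 0.21 in QYD versus Control mice (edgeR, adjusted p = 7.85e-05) and 0.09 on library size. Psat1, the transaminase of the route, had 16.3, 17.6 and 20.8 CPM in QYD, 21.9, 18.4 and 20.1 CPM in Model and 65.1, 43.04 and 30.6 CPM in Control libraries. The Control libraries of Psat1 were spread widely but lay above all others on this scale. The log2 fold change of Psat1 was -1.34 ± 0.23 in QYD versus Control mice and 0.69 on library size, where it was called higher. Psph, the phosphatase that ends the route, averaged 3.05 ± 0.46, 2.96 ± 0.737 and 6.86 ± 2.94 CPM in QYD, Model and Control mice, with log2 fold changes of -1.17 ± 0.31 and 0.86 in QYD versus Control mice. Without Control 43 the TMM value of Psph was -0.86 and no longer called (edgeR, adjusted p = 0.0577).

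**Figure D2:**
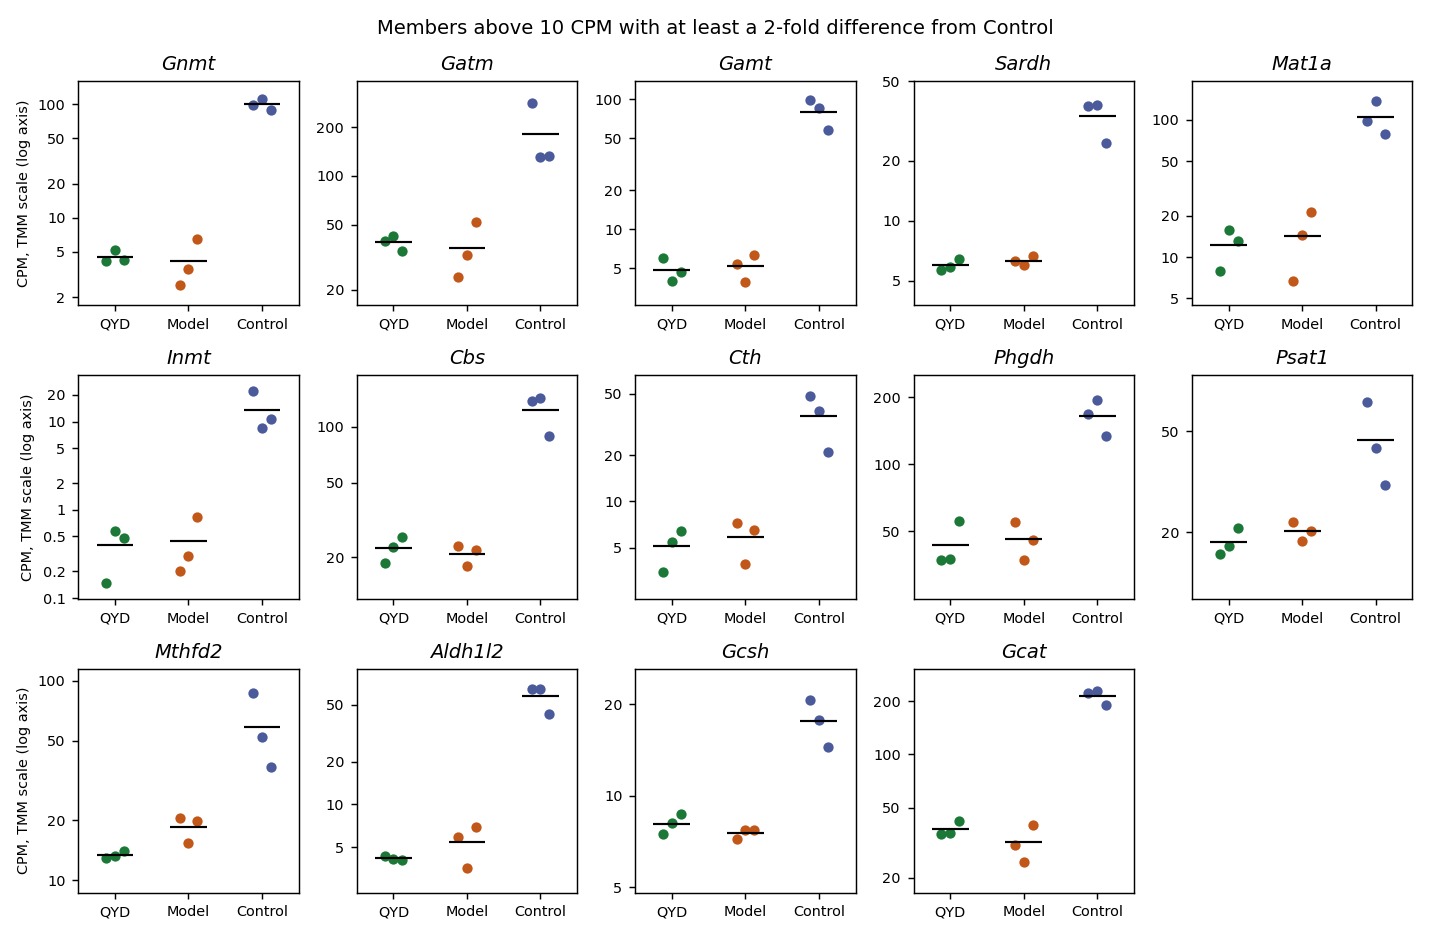
CPM on the TMM scale, on a log axis, of the 14 members that averaged 10 CPM or more in some group and had an absolute log2 fold change of at least 1 against Control in QYD or Model mice. Points are libraries, 3 per group, and lines are group means. In each of these panels the QYD and Model points intermix or lie close together and all lie below the Control points.

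In the folate cycle 3 of 7 members were called lower in QYD versus Control mice on the TMM scale, against 20.3% of all tested genes. These were the mitochondrial Aldh1l2, Mthfd2 and Shmt2. On library size 1 of the 7 was called lower, against 0.99% of all tested genes, and 5 higher, against 93.8%. Aldh1l2, the mitochondrial formyltetrahydrofolate dehydrogenase (chromosome 10, 83487447 to 83534146), had 4.36, 4.15 and 4.10 CPM in QYD, 5.92, 3.60 and 6.90 CPM in Model and 64.6, 64.7 and 43.4 CPM in Control libraries. The Aldh1l2 log2 fold change was -3.77 ± 0.24 in QYD versus Control mice (edgeR, adjusted p = 3.22e-06) and -1.73 on library size, and -3.40 ± 0.23 and -1.25 in Model versus Control mice. Aldh1l1, the cytosolic enzyme of the same reaction, averaged 36.6 ± 7.11 CPM in QYD, 34.6 ± 9.499 CPM in Model and 33.0 ± 0.67 CPM in Control mice, with log2 fold changes of 0.15 ± 0.21, not called, and 2.197 on library size in QYD versus Control mice.

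Mthfd2, the mitochondrial methylenetetrahydrofolate dehydrogenase, had 13.0, 13.3 and 14.04 CPM in QYD, 20.5, 15.5 and 19.7 CPM in Model and 87.2, 52.3 and 36.9 CPM in Control libraries. The QYD libraries were the lowest group without overlap on the TMM scale. Its log2 fold change in QYD versus Control mice was -2.13 ± 0.26 (edgeR, adjusted p = 0.000151), and -0.08 on library size, where it was not called. Shmt2, which splits serine into glycine and a carbon unit in mitochondria, averaged 16.4 ± 1.04, 20.4 ± 3.47 and 29.7 ± 8.54 CPM in QYD, Model and Control mice, with log2 fold changes of -0.86 ± 0.20 on the TMM scale and 1.18 on library size in QYD versus Control mice, called in opposite directions. The cytosolic Shmt1 (1.39 ± 0.109, 1.46 ± 0.134 and 1.87 ± 0.41 CPM) and Mthfd1 (16.4 ± 0.835, 16.8 ± 2.29 and 20.0 ± 4.58 CPM) and the mitochondrial Mthfd1l (6.98 ± 0.739, 7.31 ± 0.889 and 6.74 ± 1.66 CPM, each in QYD, Model and Control mice) were not called on the TMM scale and were called higher in QYD than in Control mice on library size.

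The glycine cleavage system, which breaks glycine down to a carbon unit, carbon dioxide and ammonia, did not move as one. Gldc, its decarboxylase, had 6, 10 and 6 counts in QYD, 11, 16 and 8 counts in Model and 0 counts in all 3 Control libraries. The limit that a count of 0 allows, 3 counts, was worth 0.381 to 0.419 CPM in a Control library, above every QYD library (0.175, 0.335 and 0.223 CPM), so no fold change is given although the gene was called higher in QYD versus Control mice (edgeR, adjusted p = 0.0207, and 0.0519 without Control 44). Gcsh, the lipoyl carrier protein of the system, had 7.48, 8.11 and 8.68 CPM in QYD, 7.18, 7.71 and 7.69 CPM in Model and 20.7, 17.7 and 14.5 CPM in Control libraries. It was among the members with the tightest groups, and its log2 fold change in QYD versus Control mice was -1.12 ± 0.14 (edgeR, adjusted p = 0.00019) and 0.91 on library size, called in opposite directions. Amt, the aminomethyltransferase, averaged 1.69 ± 0.582, 1.37 ± 0.549 and 2.74 ± 0.721 CPM, and Dld, the dihydrolipoyl dehydrogenase shared with the pyruvate dehydrogenase complex, averaged 32.1 ± 5.02, 25.1 ± 1.00 and 35.9 ± 7.00 CPM in QYD, Model and Control mice. Neither was called in QYD versus Control mice on the TMM scale, and both were called higher on library size.

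In threonine breakdown to glycine, Gcat was called lower in QYD versus Control mice on both scales. Gcat, which completes it (chromosome 15, 79030874 to 79042531), had 35.6, 36.0 and 41.8 CPM in QYD, 30.8, 24.6 and 40.0 CPM in Model and 224, 229 and 192 CPM in Control libraries. The Gcat log2 fold change was -2.51 ± 0.18 in QYD versus Control mice (edgeR, adjusted p = 5.05e-06) and -0.48 on library size, and -2.76 ± 0.18 and -0.62 in Model versus Control mice. Tdh, the dehydrogenase before it, averaged 15.5 ± 5.10, 13.0 ± 5.04 and 21.0 ± 8.53 CPM in QYD, Model and Control mice, with overlapping groups and log2 fold changes of -0.44 ± 0.36, not called, and 1.63 in QYD versus Control mice.

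**Figure D3:**
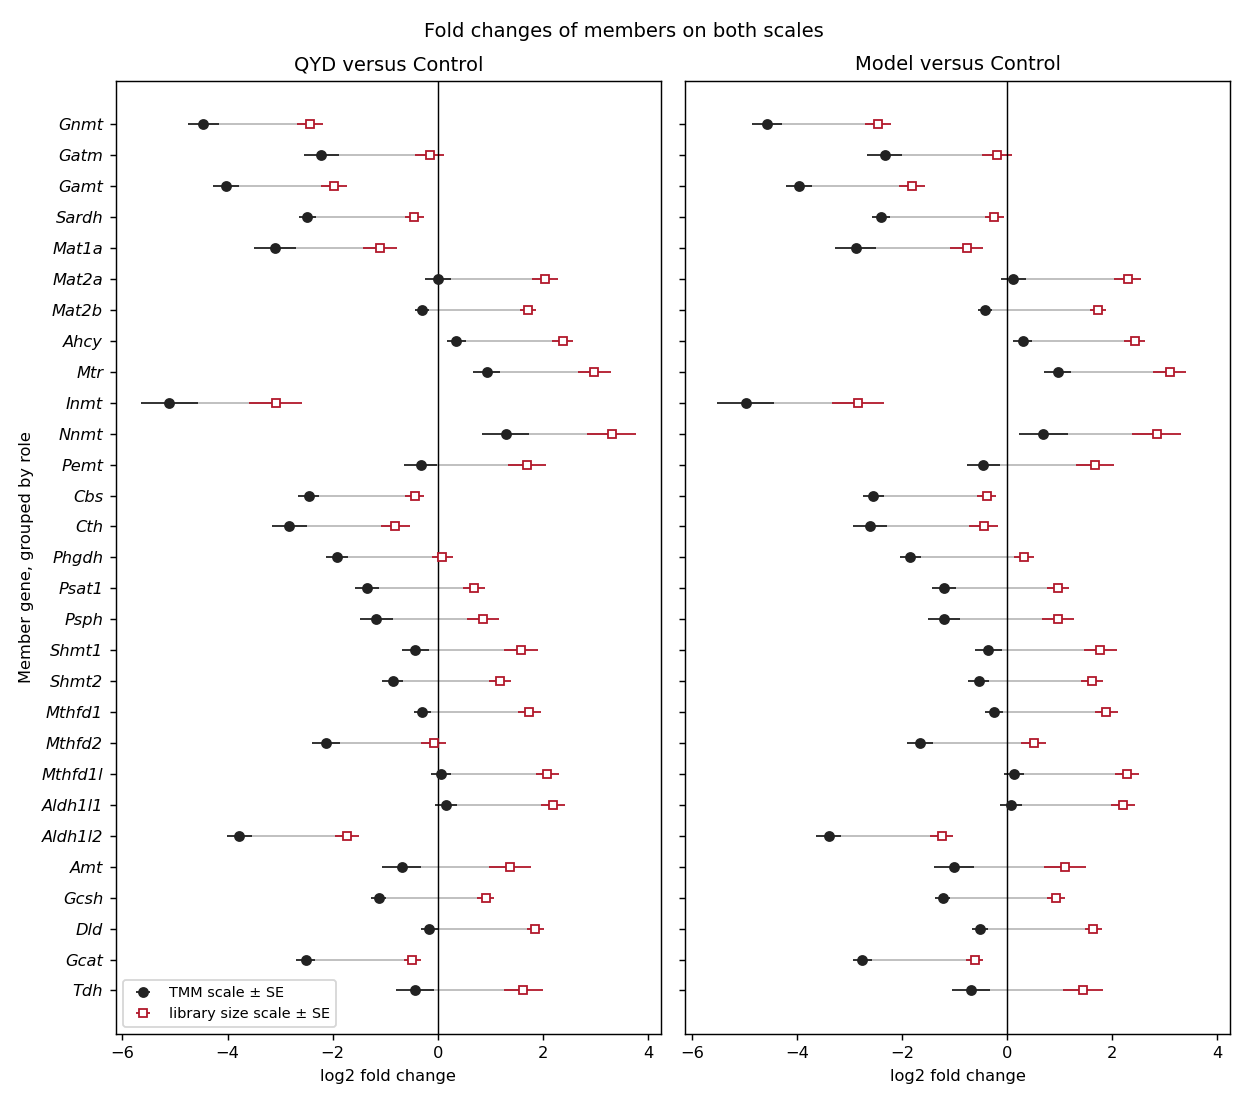
Log2 fold changes of 29 tested members in QYD versus Control (left) and Model versus Control mice (right), with Gldc left out because its Control counts are 0. Filled circles are on the TMM scale and open squares on library size, each ± SE, and grey lines join the 2 values of a gene. Gnmt, Gatm, Gamt, Sardh, Mat1a, Inmt, Cbs, Cth, Aldh1l2 and Gcat lie left of 0 on both scales in both panels. The library size bars of Gatm cross 0.

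Counts of some members are uncertain because other genes share their sequence. Of the 50-base stretches of annotated Ahcy transcripts, 31.3% were unique, and the copy Gm4737 was itself listed with 22.5 to 255 counts. For Phgdh 52.2% of stretches were unique, for Bhmt 74.7%, for Gcat 89.2% and for Tdh 89.8%. Gcat shares its stretches with Galr3, which had 1.00 to 12.2 counts. All other listed members were at least 95.4% unique.

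No member differed between QYD and Model mice at the adjusted threshold. Across all tested genes 0% were called by edgeR on the TMM scale, while 750 of the 12828 had an unadjusted p under 0.05. DESeq2 and limma-voom likewise called 0 members. The median log2 fold change of the 30 members was -0.03, and the smallest adjusted p among them was 0.826. Dld was the single member with an unadjusted p under 0.05, at 27.1, 32.1 and 37.1 CPM in QYD against 25.9, 24.0 and 25.4 CPM in Model libraries, a log2 fold change of 0.36 ± 0.16 (edgeR, adjusted p = 0.826). Mthfd2 lay lower without overlap, with a log2 fold change of -0.47 ± 0.25 (edgeR, adjusted p = 0.826). Nnmt stood at 0.60 ± 0.35, Shmt2 at -0.31 ± 0.20 and Aldh1l2 at -0.38 ± 0.23, each with overlapping groups. For the members furthest from Control, the QYD versus Model values were 0.12 ± 0.28 for Gnmt, -0.08 ± 0.24 for Gamt and -0.13 ± 0.67 for Inmt. The Inmt value was 0.64 without Model 59. The standard errors bound what could be seen, and a p that misses the threshold does not show that the groups were alike.

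**Figure D4:**
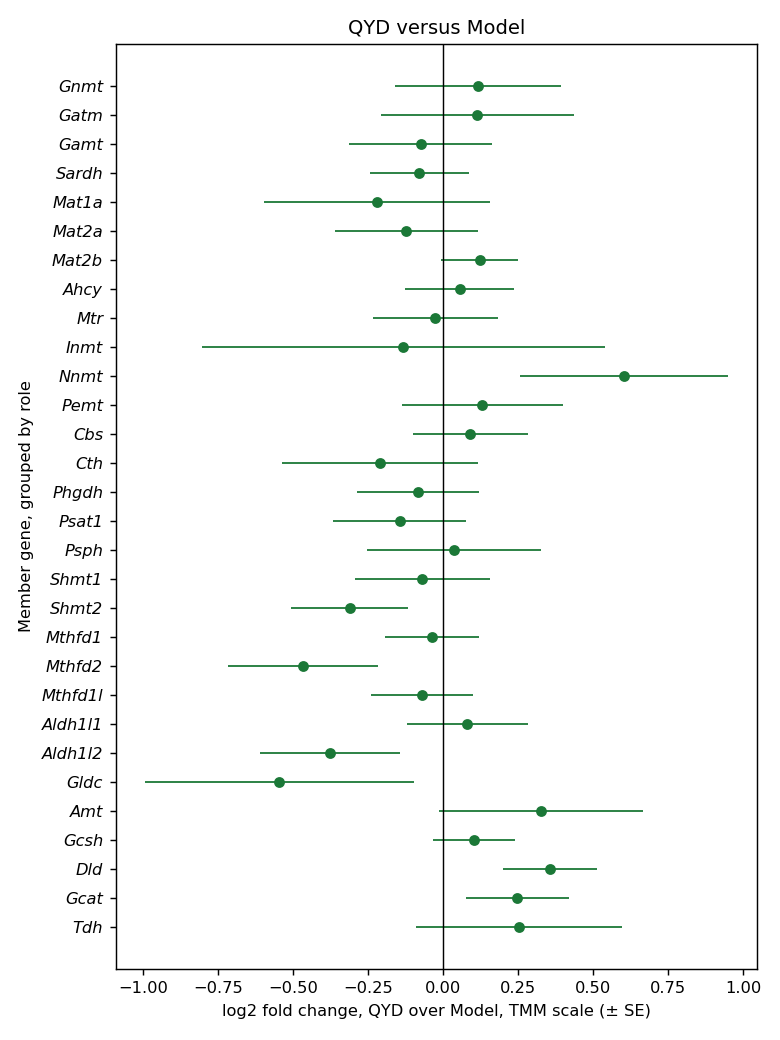
Log2 fold changes of the 30 tested members in QYD versus Model mice on the TMM scale, as points ± SE, with genes grouped by role. Values run from -0.55 for Gldc to 0.60 for Nnmt, and none was called at an adjusted p under 0.05.

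Ratios of related enzymes within a library do not depend on the scale, so they were compared between groups. Whether a ratio of counts lies above or below 1 depends on transcript length, and differences of its log2 between groups do not. A set of 7 pairs was compared as log2 ratios of counts. Counts of Mat2a per count of Mat1a were 4.29, 2.31 and 2.79 in QYD, 6.73, 2.30 and 1.73 in Model and 0.540, 0.166 and 0.400 in Control libraries. Mat1a had more counts than Mat2a in every Control library and fewer in all 6 others. The mean log2 ratio was 1.60 ± 0.46 in QYD, 1.58 ± 1.03 in Model and -1.60 ± 0.89 in Control mice (SD, n = 3 each), and QYD minus Control was 3.20 ± 0.58 (SE).

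Counts of Inmt per count of Nnmt were 0.0791, 0.232 and 0.257 in QYD, 0.181, 0.141 and 0.961 in Model and 15.0, 10.2 and 18.8 in Control libraries. The QYD minus Control difference of the log2 ratio was -6.41 ± 0.60. In Control libraries this ratio rests on 10, 6 and 4 counts of Nnmt. Counts of the mitochondrial Aldh1l2 per count of the cytosolic Aldh1l1 were 0.115, 0.0972 and 0.142 in QYD, 0.250, 0.0931 and 0.167 in Model and 1.95, 1.92 and 1.34 in Control libraries, a QYD minus Control difference of -3.88 ± 0.24. Per length the pair was near even in Control libraries, with Aldh1l2 at 4.14, 4.44 and 3.03 FPKM and Aldh1l1 at 4.04, 4.43 and 4.34 FPKM. In FPKM, Mat2a lay above Mat1a and Nnmt above Inmt in all 6 QYD and Model libraries, and below them in all 3 Control libraries, with Model 59 close to even for Inmt (1.40) and Nnmt (1.44). The log2 ratio of Mthfd2 to Mthfd1 averaged -0.28 in QYD, 0.14 in Model and 1.49 in Control mice, a QYD minus Control difference of -1.77 ± 0.49. That of Gatm to Gamt averaged 3.01 in QYD, 2.76 in Model and 1.12 in Control mice, a difference of 1.89 ± 0.34.

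In these 5 pairs QYD and Control libraries did not overlap, and the exact two-sided permutation p of each was 0.10, the smallest that 3 against 3 mice allow, and 0.14 adjusted over the 7 pairs. Shmt2 to Shmt1 and Mthfd1l to Mthfd1 overlapped between QYD and Control libraries, with differences of -0.38 ± 0.43 and 0.33 ± 0.34 and adjusted exact permutation p-values of 0.50 and 0.467. Between QYD and Model libraries, Shmt2 to Shmt1 was lower without overlap, with a difference of -0.23 ± 0.09 (exact two-sided permutation p = 0.10, adjusted p = 0.70). The other 6 pairs overlapped, with adjusted exact p-values of 0.70 to 0.90.

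**Figure D5:**
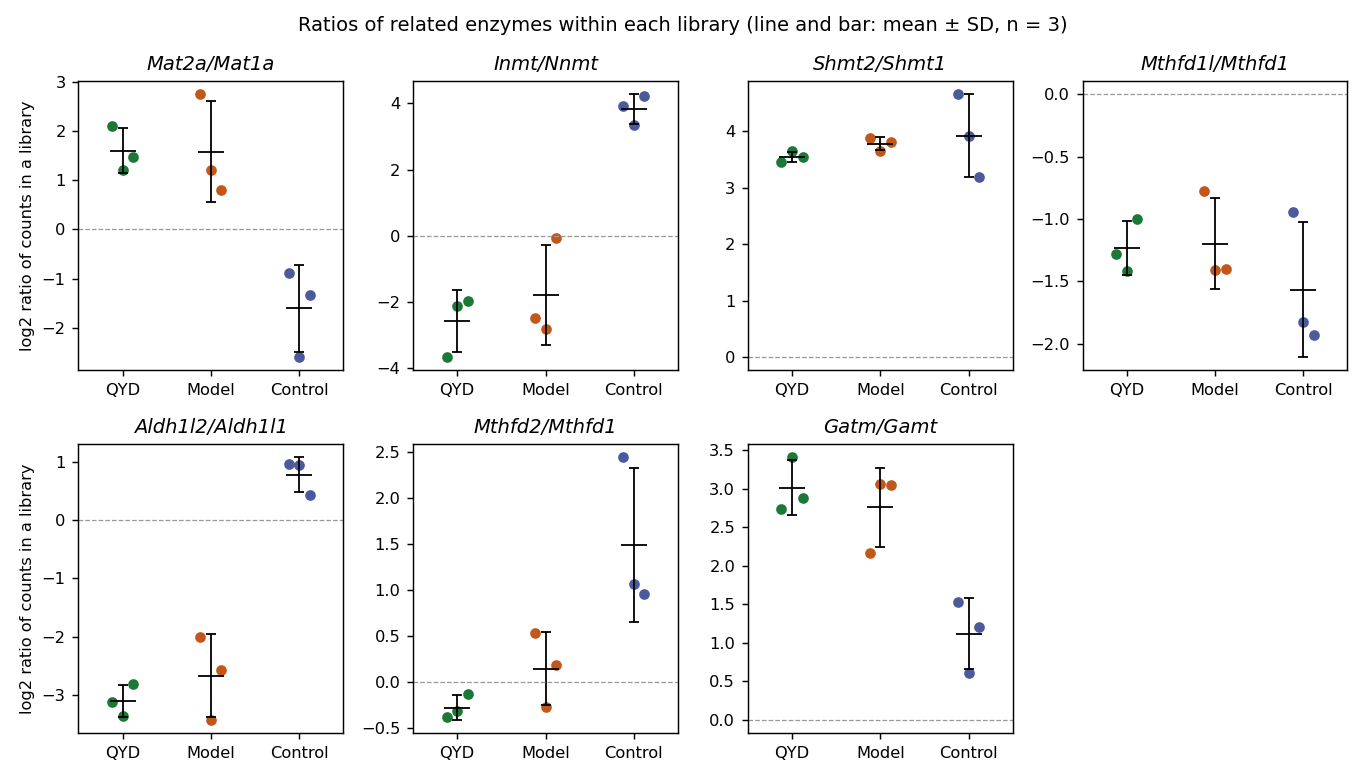
Log2 ratios of counts of 7 pairs of related enzymes within each library. Points are libraries, and lines with bars are means ± SD (n = 3), with QYD, Model and Control from left to right. Mat2a/Mat1a lies above 0 in all QYD and Model libraries and below 0 in all Control libraries, while Inmt/Nnmt and Aldh1l2/Aldh1l1 lie below 0 in QYD and Model and above 0 in Control libraries, where a ratio of counts is not adjusted for transcript length.

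Levels between genes were compared with the deposited FPKM values, which divide by gene length and library total. Ahcy led in every group, at 625 ± 96.2 FPKM in QYD, 643 ± 77.8 FPKM in Model and 120.1 ± 28.4 FPKM in Control mice. Gnmt was second among the members in Control mice but far down the order in the others, at 7.85 ± 1.21 FPKM in QYD (rank 17 of 31), 7.65 ± 3.01 FPKM in Model (rank 17) and 42.0 ± 4.78 FPKM in Control mice (rank 2). After Gnmt, the order in Control mice was Gcat (37.9 ± 3.60 FPKM), Gamt (37.1 ± 8.16), Phgdh (36.0 ± 6.50) and Gatm (30.7 ± 12.9), neighbours that did not differ beyond their spread. In QYD mice Phgdh (38.4 ± 5.08 FPKM), Gcat (28.3 ± 2.78), Gatm (27.6 ± 5.69) and Dld (23.1 ± 0.501) followed Ahcy. Together the listed members took 215 ± 29.0 of every 100000 counts in QYD, 225 ± 16.6 in Model and 84.3 ± 4.35 in Control mice, of which Ahcy alone made up 69.8% ± 1.49, 68.9% ± 3.57 and 34.5% ± 8.66. FPKM and these shares divide by the library total and are not adjusted for composition. On library size the median log2 fold change of all tested genes was 2.09 in QYD versus Control mice. On the TMM scale Ahcy stood at 0.35 ± 0.18 there and was not called.

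Genes of neighbouring pathways outside the set were counted beside all tested genes, of which 20.5% were called higher and 20.3% lower in QYD versus Control mice on the TMM scale, and 93.8% and 0.99% on library size. The change of scale moves all genes alike, so it shows nothing particular to a list. Of 15 tested genes of folate uptake and other folate steps, 7 were called lower and 0 higher in QYD versus Control mice on the TMM scale (median log2 fold change -0.45), and 1 lower and 13 higher on library size. Ggh, which trims folate polyglutamates, was lower on both, at 68.01 ± 8.94 CPM in QYD, 48.2 ± 4.12 CPM in Model and 386 ± 119 CPM in Control mice, with log2 fold changes of -2.50 ± 0.22 (edgeR, adjusted p = 1.7e-05) and -0.47 in QYD versus Control mice. Fpgs, which adds those glutamates, stood at -1.96 ± 0.18 and 0.07. Of 15 polyamine and methionine salvage genes 8 were called lower and 2 higher (median -0.68), and 0 lower and 13 higher on library size. Spermidine synthase, Srm, stood at -1.96 ± 0.17 and 0.08, and Odc1, the first enzyme of polyamine synthesis, at -0.96 ± 0.12 and 1.07.

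Of 16 other methyltransferases that use S-adenosylmethionine, 4 were called higher and 2 lower on the TMM scale (median 0.10), beside 20.5% and 20.3% of all genes, and 16 higher on library size, beside 93.8%. The DNA methyltransferase Dnmt1 had 6.24 ± 1.06 CPM in QYD, 7.19 ± 1.59 CPM in Model and 3.13 ± 0.651 CPM in Control mice, and was called higher on both scales, at 0.99 ± 0.24 (edgeR, adjusted p = 0.00693) and 3.04. The histamine methyltransferase Hnmt stood at -1.29 ± 0.18 and 0.76, called in opposite directions. Of 3 tested genes of creatine transport and use, the creatine transporter Slc6a8 and the mitochondrial creatine kinase Ckmt1 were called higher on both scales, at 0.50 ± 0.15 and 2.53 and at 0.64 ± 0.21 and 2.67. Of 10 choline and betaine genes 3 were called higher and 4 lower (median -0.09), beside 20.5% and 20.3% of all genes, and 9 higher and 0 lower on library size, beside 93.8% and 0.99%, among them Aldh7a1, which oxidises betaine aldehyde, at -1.99 ± 0.15 and 0.05 (not called on library size).

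Of 16 genes of glycine and serine use and transport 5 were called higher and 6 lower (median -0.30), beside 20.5% and 20.3% of all genes, and 14 higher and 0 lower on library size, beside 93.8% and 0.99%, with the neutral amino acid transporter Slc1a4 at -2.20 ± 0.32 and -0.17 and the glycine transporter Slc6a9 at -0.94 ± 0.16 and 1.10. Of 8 cysteine and sulfide genes 3 (Mpst, Tst and Csad) were called lower (median -0.51), and on library size all 8 were higher. Of 5 genes handling S-adenosylhomocysteine and adenosine, Adk, adenosine kinase, was called lower at -1.51 ± 0.25, against 0.53 on library size (median -0.03). ATF4 is a transcription factor known to drive serine synthesis and mitochondrial folate genes. Of 19 genes comprising Atf4 and known targets outside the set, 11 were called lower and 1 higher (median -0.83), and 1 lower and 17 higher on library size. Atf4 itself stood at -1.25 ± 0.14 and 0.78 and Asns, asparagine synthetase, at -1.41 ± 0.16 and 0.62. In QYD versus Model mice 0 genes of these 9 lists were called.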

How the data were processed

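Polyadenylated RNA of pancreas was sequenced from circularised libraries, per the labels' protocols, which give no strandedness. Tools named in the submitters' processing notes are RSEM 1.2.12, HISAT2 2.0.4 and Bowtie2 2.2.5, with build GRCm38.p6 and no role for each. Per the file headers, the authors deposited read counts per gene and library, taken here as estimated counts, of which 93.5% were whole within 1e-06. FPKM values deposited by the authors were used to rank levels between genes. TPM values, also deposited, served to check the within-library ratios. The authors' mean columns were left out, among them 9 with no sample in the labels.

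Estimated counts were rounded and tested with edgeR 4.0.16 (R 4.3.3) after filterByExpr and TMM scaling. A single quasi-likelihood fit held all 9 libraries and group alone, with 6 residual degrees of freedom and a common biological coefficient of variation of 0.175. P-values were adjusted by Benjamini-Hochberg over 12828 genes at a threshold of 0.05, and SE is the log2 fold change divided by the square root of F. Library totals lay between 19112923 and 20212744 counts. Replicates are separate mice, and no pair of them was alike within counting noise. Within-library ratios used counts + 0.5. The limit that a count of 0 allows is 3 counts and covers counting error only.

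Alternatives were library size and RLE scaling, TMM factors that ignore the top 50 genes, a filter of 5 CPM in 3 libraries or none, DESeq2 1.42.0, voom in limma 3.58.1 with weighted samples, fits to the compared groups alone, and leaving out each library. Members given library by library averaged 10 CPM or more in a group, with an absolute log2 fold change of at least 1 against Control in QYD or Model mice. Pathway genes were named from the 4 of each list with the lowest p among those averaging 1 CPM or more. Ahcy, Mtr, Nnmt, Gldc and Dld fall outside the first rule and were given by library after their values were seen. The members and all lists were chosen with earlier results of these data known.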

Additional observations from a re-analysis of the deposited data

How the results depend on the processing

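Scaling changed the most. In QYD versus Control mice library size scaling moved members called higher to 18, against 3 with TMM, and members called lower to 9, against 16. Of all tested genes 93.8% were then called higher, against 20.5% with TMM, and 0.99% lower, against 20.3%. In Model versus Control mice, which chose the set and is described without a test, 18 were past the threshold upwards, against 2, and 6 downwards, against 19. Of all tested genes 94% were past it upwards, against 21.3%, and 0.943% downwards, against 21.3%. The median log2 fold change of all tested genes moved from 0.06 to 2.09 in QYD versus Control mice and from 0.04 to 2.19 in Model versus Control mice. Turned signs are thus nothing particular to the members. The sign turned in 26 values that were past the threshold on at least 1 of the 2 scales. Sign changes in QYD versus Model mice, where no member was called on either scale, are not counted. In Model versus Control mice these became 1.73 for Mat2b, 1.67 for Pemt, 0.32 for Phgdh, 0.97 for Psat1, 0.96 for Psph, 1.78 for Shmt1, 1.62 for Shmt2, 1.89 for Mthfd1, 0.51 for Mthfd2, 1.10 for Amt, 0.93 for Gcsh, 1.64 for Dld and 1.44 for Tdh. In QYD versus Control mice they became 2.04 for Mat2a, 1.72 for Mat2b, 1.70 for Pemt, 0.088 for Phgdh, 0.69 for Psat1, 0.86 for Psph, 1.59 for Shmt1, 1.18 for Shmt2, 1.74 for Mthfd1, 1.37 for Amt, 0.91 for Gcsh, 1.86 for Dld and 1.63 for Tdh. With at least 5 CPM in 3 libraries, 1 member was called higher in each of these comparisons, since fewer members (23) were then tested. A fit to the compared groups alone left 1 member past the threshold upwards in Model versus Control mice, Mtr at 0.95, since Gldc was not among the genes tested in that fit. DESeq2, RLE scaling and TMM factors that ignore the top 50 genes left the side of the threshold of all 30 members as it was in all 3 comparisons.

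Leaving out 1 library at a time gave 0 to 3 members called higher in QYD versus Control mice, with 0 without Control 44. Members called lower ranged over 15 to 17 in QYD versus Control mice, and members past the threshold downwards over 15 to 18 in Model versus Control mice. Shares over all tested genes are not given for these fits, so these counts show only how stable the member calls were. Group differences of within-library ratios computed from TPM kept their direction in all 7 pairs. With limma-voom, Nnmt in QYD versus Control mice stood at 1.54 and lost its call (adjusted p = 0.0542), and Mat2b at -0.38 gained one. No paired analysis was possible because the groups share no animal numbers. Precision is limited by 3 mice per group, and for Inmt, Nnmt and Gldc by low counts.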

Other observations

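The place of several members among all 17132 listed genes differed widely between groups by mean FPKM. Gnmt ranked 3779 in QYD, 4136 in Model and 266 in Control mice. Gamt ranked 3242 in QYD, 3173 in Model and 287 in Control mice, and Inmt ranked 10936, 10723 and 1552 in QYD, Model and Control mice. Aldh1l2 ranked 9894 in QYD, 9230 in Model and 2235 in Control mice. Ahcy ranked 100 in QYD, 103 in Model and 151 in Control mice. Mtr, called higher in QYD than in Control mice on both scales, ranked 9629, 9558 and 10886 in QYD, Model and Control mice. Ranks follow the same counts as the fold changes and are given as a description.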
